A study of Homo sapiens with 12 samples.

Results

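HCC827 is an established lung adenocarcinoma line whose growth depends on an activating deletion in EGFR, the growth factor receptor at which osimertinib is aimed. The 4 HCC827 libraries of the 12 in the series were compared: 2 from cells with a vector for ZNF263 and 2 from cells with a control vector, chosen by their cell line and genotype labels. All 4 came from cells that had been given osimertinib in steps and kept in DMEM, the control cells included, so that osimertinib exposure is shared and no unexposed HCC827 cells enter the comparison. OR follows the line's name in the titles, with no explanation there. The labels give neither the promoter of the vector nor whether the cells were a pool or a clone. The title of the series asks how ZNF263 bears on the response to EGFR-targeted therapy.

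ZNF263 belongs to the KRAB zinc finger proteins of the nucleus. KRAB is a module through which such factors recruit the co-repressor TRIM28, and ZNF263 is known to bind purine-rich GGAGGAGGA repeats. Lung adenocarcinomas often retain parts of the programme of alveolar type 2 cells, which make the surfactant that lowers surface tension in the alveoli. ATF4 is a transcription factor whose translation rises when amino acids run short or the endoplasmic reticulum is under stress, and its targets build, import and charge amino acids.

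Expression had been deposited as FPKM, fragments scaled by gene length and library size. Whole reads could be recovered from the values of 99.99% of the 10970 genes kept (1 FPKM or above in 2, 3 or 4 libraries). They are the smallest whole numbers that give the values of a gene, so its reads can be understated, above all where they are few. Over all genes with recovered reads, kept or not, the recovered reads of a library summed to between 16211725 and 16992106. The median gene among them had 64.6 to 67.6 reads at 1 FPKM. The control libraries differed more from each other than the ZNF263 libraries did, with a median absolute difference of 0.123 on the log2(FPKM + 1) scale against 0.0706, and against 0.055 to 0.0702 between paired libraries of the other lines. The spread of a gene was estimated from all 6 groups of the series, so HCC827 values were partly judged by the smaller spread of the other lines. The labels do not say that the libraries came from separate cultures, so each p-value is set against a spread between libraries that could be technical.

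With ZNF263, 2366 of 10970 genes passed the test (21.6%, limma with Benjamini-Hochberg adjusted p under 0.05), of which 1565 were higher (14.3%) and 801 lower (7.3%). Most changes were small. The median absolute change of the called genes was 0.33 on the log2 scale, and 26 genes changed by at least 1, 19 of them upward. Without the first ZNF263 library 1115 genes were called, and 1527 were called from the 4 HCC827 libraries alone. The split between directions depended on scaling: higher genes made up 66.2% of the calls on the deposited scale, 50.2% after median-of-ratios scaling and 50.5% after quantile normalization, although the median change of all genes moved only from 0.05 to 0.00. Falls below are therefore read against 7.3% and rises against 14.3% of all genes.

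ZNF263 itself, on chromosome 16 at 3263800 to 3301401 (GRCh38, GENCODE 29), was listed at 13.2 and 11.8 FPKM in the control libraries and at 19.6 and 19.8 FPKM in the ZNF263 libraries. The groups did not overlap, and the rise was 1.53-fold on the FPKM + 1 scale (log2 change 0.62, SE 0.06, adjusted p = 1.94e-05). Every fold change below is on that scale and tends to be smaller than the ratio of the printed FPKM, most for low genes. The increase was smaller than in the other lines, where ZNF263 went from 9.11 and 9.55 to 38.98 and 39.3 FPKM in PC9 and from 9.63 and 10.2 to 39.1 and 39.8 FPKM in H1975. The difference of the log2 change was -1.34 against PC9 (adjusted p = 1.71e-06) and -1.27 against H1975 (adjusted p = 4.32e-08). EGFR stood at 442 and 470 FPKM in the controls and at 361 and 370 with ZNF263, a fall of 1.25-fold (log2 change -0.32, adjusted p = 0.000578) with no overlap. AURKA, a mitotic kinase, stood at 43.3 and 43.5 FPKM in the controls and at 21.7 and 26.8 with ZNF263 (log2 change -0.82, adjusted p = 4.14e-05). Its values were the only ones among the kept genes that did not come out as whole reads. Of 24 listed mitosis genes 3 rose and 2 fell, AURKA among the latter. Without the second control library 8 rose and 4 fell, and without the first 1 rose and 1 fell.

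**Figure D1:**
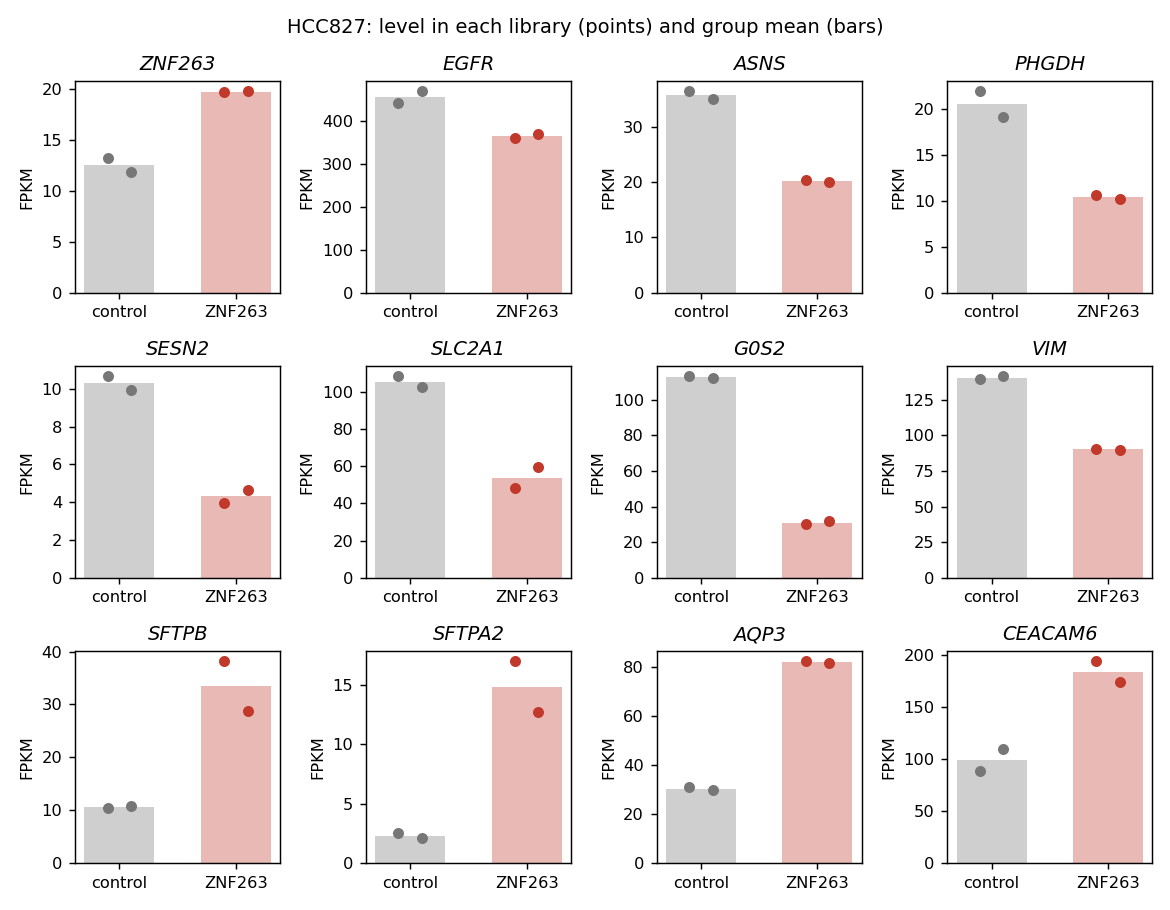
Level in FPKM of 12 genes in each HCC827 library (points) with the mean of the 2 libraries of a group (bars, from 0), control in grey and ZNF263 in red. In each panel the points of the groups stand apart, with G0S2 at 112.1 and 113.2 FPKM in the controls against 29.99 and 31.64 with ZNF263.

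The ATF4 programme was lower. Of 70 listed genes, 50 were measured above the minimum, and 32 of these fell, 2 rose and 16 did not pass the test. Their median change was -0.39 against 0.05 over all genes. In 39 of the 50, both ZNF263 libraries lay below both controls, as in 19.8% of all genes. Of the 32 falls, 27 were called whichever of the 4 libraries was left out, and 28 of the members fell in the fit of the HCC827 libraries alone. The plot of the programme by role shows each member.

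**Figure D2:**
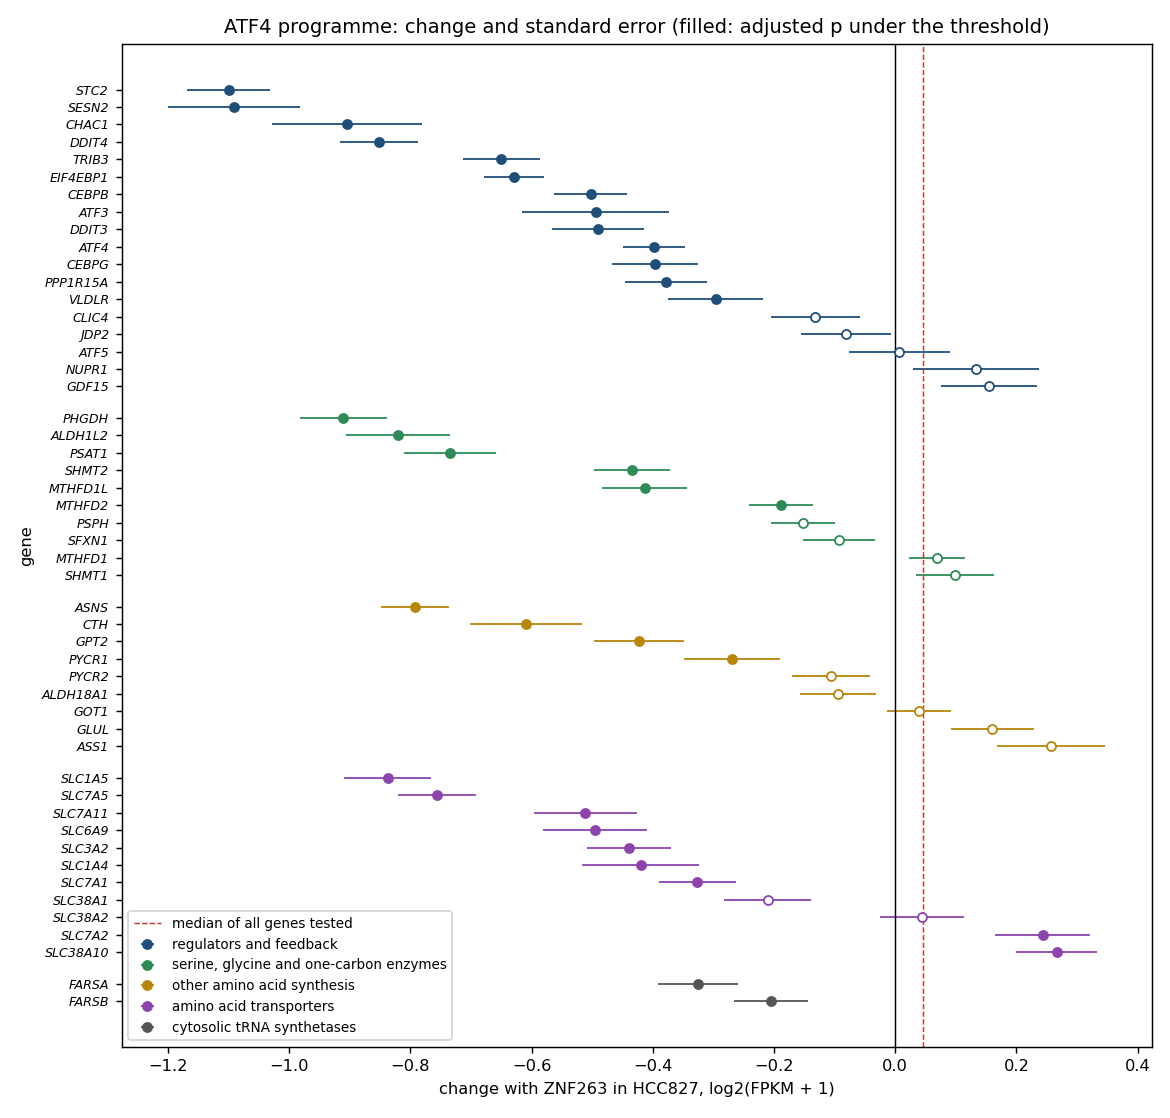
Change with ZNF263 in HCC827 on the log2(FPKM + 1) scale for the 50 measured genes of the ATF4 programme, with its standard error, grouped by role; filled points passed the test and open points did not. Most filled points lie left of 0, down to -1.10 for STC2, and the filled points right of 0 are SLC7A2 and SLC38A10.

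Among regulators and feedback genes, 13 of 18 fell and none rose (median change -0.44). SESN2 encodes a sensor of leucine that restrains mTORC1 and was listed at 10.7 and 9.94 FPKM in the controls. It was listed at 3.97 and 4.66 FPKM with ZNF263, 2.13-fold lower (log2 change -1.09, SE 0.11, adjusted p = 1.54e-05). STC2, a secreted glycoprotein, went from 86.1 and 83.1 to 37.1 and 40.8 FPKM (log2 change -1.10, adjusted p = 5.26e-07), and the groups of both genes were wide apart. DDIT4, another brake on mTORC1, went from 324.5 and 276.6 to 169.3 and 162.0 FPKM (log2 change -0.85, adjusted p = 1.63e-06). CHAC1 degrades glutathione and is an ATF4 target with few transcripts here. It went from 4.05 and 2.65 to 1.31 and 1.28 FPKM (log2 change -0.90, adjusted p = 0.000198), with the controls apart from each other but above both ZNF263 libraries. TRIB3, a pseudokinase that feeds back on ATF4, fell by 0.65 on the log2 scale, EIF4EBP1, the cap-binding inhibitor, by 0.63, DDIT3, the stress factor CHOP, by 0.49, and CEBPB and CEBPG, which pair with ATF4 on DNA, by 0.50 and 0.40. ATF4 mRNA was 88.0 and 84.0 FPKM in the controls and 65.4 and 64.6 with ZNF263 (log2 change -0.40, adjusted p = 0.000127), a smaller fall than that of SESN2 or STC2. ATF4 protein was not measured. ATF3 fell by 0.49 (adjusted p = 0.0104), but not without the first ZNF263 library (adjusted p = 0.139). VLDLR fell by 0.30 (adjusted p = 0.0151), but not without the first or the second ZNF263 library (adjusted p = 0.0899 and 0.0509). ATF5, NUPR1, JDP2 and GDF15 did not pass the test, with changes from -0.08 to 0.16.

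Of the enzymes that make serine and glycine and pass carbon from them to folate, 6 of 10 fell and none rose. PHGDH, the first enzyme of serine synthesis, stood at 21.9 and 19.1 FPKM in the controls and at 10.7 and 10.2 with ZNF263, 1.88-fold lower (log2 change -0.91, SE 0.07, adjusted p = 1.74e-06). PSAT1, the next enzyme, went from 76.0 and 84.6 to 45.3 and 50.4 FPKM (log2 change -0.74, adjusted p = 2.01e-05). PSPH, which completes the pathway, changed by -0.15 (adjusted p = 0.0545) and fell after median-of-ratios scaling (adjusted p = 0.0177) and with no filter on low values (adjusted p = 0.0316). ALDH1L2, a mitochondrial folate enzyme, fell by 0.82, SHMT2 by 0.43 and MTHFD1L by 0.41, whereas SHMT1 and MTHFD1, the cytosolic counterparts, changed by 0.10 and 0.07 without passing the test. MTHFD2 fell by 0.19 (adjusted p = 0.0223), but not without the first ZNF263 library (adjusted p = 0.0846) or the second (adjusted p = 0.0907).

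Asparagine synthetase, ASNS, was listed at 36.5 and 35.1 FPKM in the controls and at 20.4 and 20.1 with ZNF263, 1.73-fold lower (log2 change -0.79, SE 0.06, adjusted p = 1.3e-06). Each pair of libraries was close and the groups were far apart. Of 9 genes of other amino acid synthesis 4 fell and none rose. CTH, which makes cysteine, fell by 0.61 and the alanine transaminase GPT2 by 0.42. PYCR1, of proline synthesis, fell by 0.27 (adjusted p = 0.0263), but not without the first ZNF263 library (0.0565), the second (0.161) or the first control library (0.206), while the glutamine synthetase GLUL changed by 0.16 without passing the test. Among the amino acid transporters 7 of 11 fell and 2 rose. SLC1A5, the main glutamine carrier of many tumour cells, went from 56.6 and 47.9 to 30.1 and 27.3 FPKM (log2 change -0.84, adjusted p = 4.17e-06). SLC7A5 and SLC3A2, the chains of the leucine exchanger LAT1, fell by 0.76 and 0.44. SLC7A11, the cystine importer, fell by 0.51, the glycine carrier SLC6A9 by 0.50, SLC1A4 by 0.42 and the arginine carrier SLC7A1 by 0.33. The rises were small, 0.27 for SLC38A10 and 0.24 for SLC7A2, and each lost its call without the first ZNF263 library (adjusted p = 0.128 and 0.085), SLC7A2 also without the second (0.172) or the first control library (0.154). Only 2 of 20 listed cytosolic tRNA synthetases had values, FARSA and FARSB, the chains of the phenylalanine enzyme; FARSA fell by 0.33 and FARSB by 0.20, the latter not without the first ZNF263 library (adjusted p = 0.194) or the second control library (adjusted p = 0.0706).

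The element TGATGNAAN, the composite site of ATF4 with C/EBP partners, was searched on both strands in the RefSeq promoters (GRCh38.p14, 300 bases from upstream to just past the start). It was found in 8 of 40 promoters of measured ATF4 programme genes (20%), against 142 of 8960 promoters of all kept genes (1.6%) and 13 of 622 promoters of genes called lower (2.1%). The list was written from textbook knowledge of ATF4 targets, so its share of the element is not independent of how it was made. Of the 8 genes 6 fell, beside 32 of the 50 measured genes of the programme. These were ASNS, CHAC1, SLC3A2, SLC7A1, MTHFD1L and ATF3. The others, GOT1 and SLC38A1, did not pass the test (adjusted p = 0.639 and 0.0506). SLC38A1 fell without the first control library (adjusted p = 0.00382). The promoters of ASNS (chr7:97872359-97872658 on the minus strand), CHAC1 (chr15:40953221-40953520 on the plus strand) and ATF3 (chr1:212565157-212565456 on the plus strand) are shown 5′ to 3′ because their genes fell and hold the element, here in capitals; in CHAC1 it reads on the opposite strand. With the start site counted as 0, the element spans -68 to -60 in ASNS, -210 to -202 in CHAC1 and -191 to -183 in ATF3. Only 1 start site per gene was searched. That of ATF3 lies at the upstream end of a gene that spans 212565334 to 212620777, and any start site further in was not looked at.
ASNS: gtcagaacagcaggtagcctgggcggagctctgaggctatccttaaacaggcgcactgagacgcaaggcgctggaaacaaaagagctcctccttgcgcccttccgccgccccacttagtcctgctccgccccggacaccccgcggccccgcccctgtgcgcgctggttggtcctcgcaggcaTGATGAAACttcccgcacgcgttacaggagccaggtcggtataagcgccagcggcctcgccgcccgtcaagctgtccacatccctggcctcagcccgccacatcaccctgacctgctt
CHAC1: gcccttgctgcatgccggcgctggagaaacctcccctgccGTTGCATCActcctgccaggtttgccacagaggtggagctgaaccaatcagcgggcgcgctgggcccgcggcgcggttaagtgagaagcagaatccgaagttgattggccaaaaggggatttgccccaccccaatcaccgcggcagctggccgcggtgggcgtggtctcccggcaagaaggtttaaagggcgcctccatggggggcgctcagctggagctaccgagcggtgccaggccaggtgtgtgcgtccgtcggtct
ATF3: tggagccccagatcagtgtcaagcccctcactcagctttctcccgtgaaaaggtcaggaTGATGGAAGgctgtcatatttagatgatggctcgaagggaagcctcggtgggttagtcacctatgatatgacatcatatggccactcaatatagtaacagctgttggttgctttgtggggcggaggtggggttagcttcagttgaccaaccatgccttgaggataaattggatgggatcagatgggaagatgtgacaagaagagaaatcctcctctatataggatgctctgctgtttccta

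The purine-rich GGAGGAGGA repeat, searched likewise on both strands with overlaps counted, was in 383 of 8960 promoters of kept genes (4.3%). It was in 29 of 622 promoters of genes called lower (4.7%) and in 53 of 1230 of genes called higher (4.3%). PHGDH (chr1:119711684-119711983 on the plus strand) and MUC1 (chr1:155192866-155193165 on the minus strand) are shown, with the repeat in capitals, because both hold it and moved in opposite directions. The repeat occurs 3 times in overlap from -48 to -34 in PHGDH, which fell, and 2 times in overlap from -129 to -118 in MUC1, which rose. A match describes the letters in this window and says nothing of binding.
PHGDH: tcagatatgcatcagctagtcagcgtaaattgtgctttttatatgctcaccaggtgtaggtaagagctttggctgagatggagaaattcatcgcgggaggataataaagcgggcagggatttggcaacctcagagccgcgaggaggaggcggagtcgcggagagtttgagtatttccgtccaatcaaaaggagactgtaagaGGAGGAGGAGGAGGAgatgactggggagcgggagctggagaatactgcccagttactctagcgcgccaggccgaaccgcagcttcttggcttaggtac
MUC1: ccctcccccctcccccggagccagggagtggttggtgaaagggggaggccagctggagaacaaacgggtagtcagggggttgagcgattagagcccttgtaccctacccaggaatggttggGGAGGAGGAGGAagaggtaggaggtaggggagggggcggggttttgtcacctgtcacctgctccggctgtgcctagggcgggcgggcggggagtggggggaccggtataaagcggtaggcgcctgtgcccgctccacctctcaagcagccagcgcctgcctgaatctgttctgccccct

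The fall of the programme was in part not shared by the other lines, which have their own control libraries. In PC9, 13 of the same 50 genes fell and 3 rose, and in H1975 21 fell and 23 rose, where 3.86% and 32.8% of all genes fell and 6.11% and 32.2% rose. The change differed from that of PC9 in 9.43% of all genes and from that of H1975 in 54.4%. The HCC827 change was below that of PC9 in 17 of 50 genes and above it in 1 (adjusted p of the difference under 0.05, 4.04% and 5.39% of all genes). Against H1975 it was below in 26 and above in 13 (23.6% and 30.8% of all genes). PHGDH changed by -0.20 in PC9 and by 0.40 in H1975, and the differences were -0.71 (adjusted p = 0.00068) and -1.32 (adjusted p = 1.1e-07). ASNS changed by -0.66 in PC9, a difference of -0.13 (adjusted p = 0.318, SE 0.08), and by 0.18 in H1975, a difference of -0.97 (adjusted p = 1.99e-07). CTH, down in HCC827, was up by 1.89 in H1975, and SLC6A9 by 1.61. The regulators and feedback genes leaned lower in H1975 as well: 10 of 18 fell and 5 rose (median change -0.32). SESN2 stood at 3.71 and 4.46 FPKM with ZNF263 in H1975, against 8.435 and 8.507 FPKM in its controls.

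**Figure D3:**
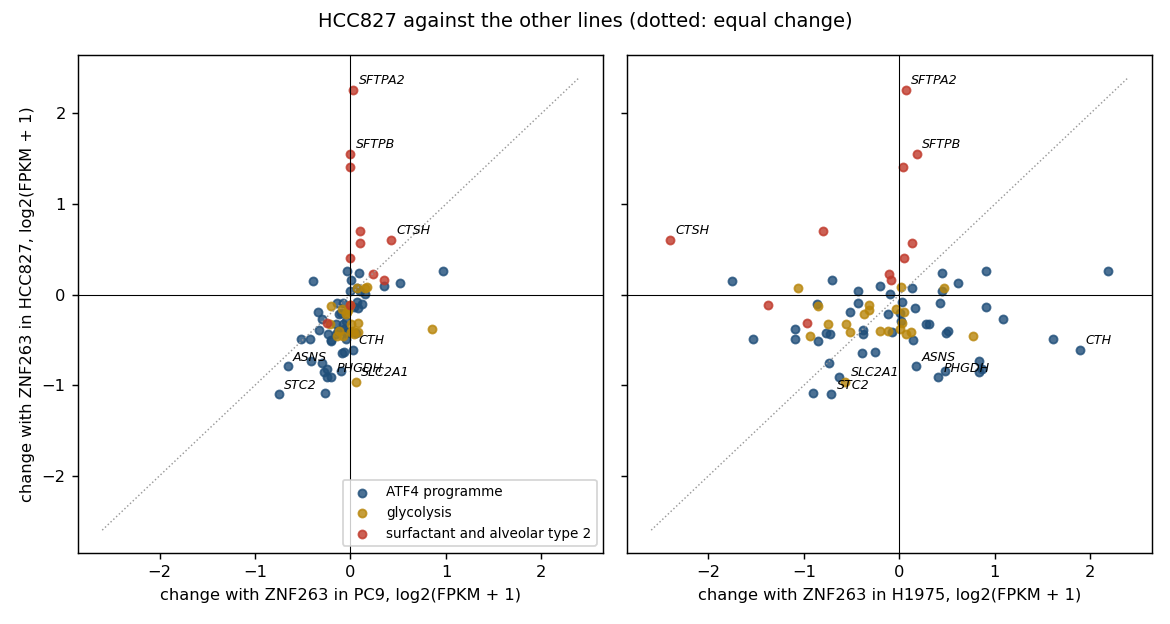
Change with ZNF263 in HCC827 (vertical axis) against the change in PC9 (left) and H1975 (right), log2(FPKM + 1), for genes of the ATF4 programme (blue), glycolysis (yellow) and surfactant and alveolar type 2 cells (red); the dotted line marks equal change. ASNS lies near the dotted line for PC9 and away from it for H1975, where it changed by 0.18 against -0.79, and SFTPA2 (2.26 in HCC827) lies near 0 on both horizontal axes.

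MYC drives ribosome production and many of the same amino acid enzymes. It was listed at 90.9 and 93.4 FPKM in the controls and at 59.6 and 69.9 with ZNF263 (log2 change -0.51, SE 0.06, adjusted p = 0.000115). Of 22 listed ribosome biogenesis and MYC target genes 14 fell and none rose (median change -0.24), and 9 fell without the first ZNF263 library. ODC1, which starts polyamine synthesis, fell by 0.48, the spermidine synthase SRM by 0.46, and the nucleolar proteins NOP2, NOP16 and NOP56 by 0.44, 0.40 and 0.38. The mRNAs of ribosomal proteins themselves had a median change of -0.08, with 2 of 26 lower and none higher. That count rested on single libraries: 21 of them fell without the second control library and 0 without any 1 of the other libraries. In H1975 MYC rose by 0.56, and in PC9 it fell by 0.25.

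Genes for glucose uptake and glycolysis were also lower: 13 of 21 fell and none rose, with a median change of -0.32, and 10 of these falls were called whichever library was left out. SLC2A1, the glucose transporter GLUT1 (chromosome 1, 42925375 to 42959176), stood at 108.2 and 102.5 FPKM in the controls and at 48.1 and 59.5 with ZNF263. The groups did not overlap, and the gene was 1.95-fold lower (log2 change -0.96, SE 0.08, adjusted p = 1.74e-06). GAPDH, among the most abundant mRNAs, went from 4218 and 3807 to 2878 and 3033 FPKM (log2 change -0.44, adjusted p = 0.000146). The enzymes LDHA, PGK1, PKM and TPI1 fell by 0.46, 0.42, 0.41 and 0.40, and the lactate exporter SLC16A3 by 0.38. The hexokinases HK1 and HK2, which trap glucose in the cell, changed by 0.09 and -0.12 without passing the test. Among 19 measured genes that hypoxia induces, 9 fell and none rose. The stress gene NDRG1 fell by 0.81, the peptide hormone ADM by 0.62, the pyruvate dehydrogenase kinase PDK1 by 0.62, the mitophagy receptor BNIP3 by 0.47 and VEGFA by 0.36, while KDM3A and P4HA2, oxygen-using enzymes, each changed by -0.01 without passing the test. In PC9 SLC2A1 changed by 0.05 and 1 of the 21 glycolysis genes fell, and SLC2A1 differed from HCC827 by -1.02 (adjusted p = 5.03e-05). In H1975 11 of 21 fell and 2 rose. The core ACGTG of the hypoxia response element, searched on both strands, was in 9 of 15 promoters of the hypoxia genes (60.0%) and 8 of 20 of the glycolysis genes (40.0%), against 27.2% of all 8960. It was in 170 of 622 promoters of genes called lower (27.3%) and in 309 of 1230 of genes called higher (25.1%). Lists with rises held it too, in 4 of 9 promoters of the surfactant list and 3 of 6 of the alveolar type 1 list.

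Among genes of lipid handling, G0S2, the inhibitor of the triglyceride lipase PNPLA2, moved most. It stood at 113.2 and 112.1 FPKM in the controls and at 30.0 and 31.6 with ZNF263, 3.57-fold lower (log2 change -1.84, SE 0.12, adjusted p = 9.22e-07). The fatty acid carrier FABP5 fell by 0.67, and CPT1A, which admits fatty acids to mitochondria for oxidation, went up from 8.47 and 8.07 to 11.8 and 13.2 FPKM (log2 change 0.54, adjusted p = 0.000111). G0S2 was hardly expressed in PC9, at 0.607 FPKM or less, and in H1975 it fell by 1.32. Synthesis of lipids changed little: of 21 cholesterol genes 2 rose and 2 fell, with HMGCS1 at a change of -0.01, and of 13 fatty acid synthesis genes 2 rose and 3 fell. Each of these counts lay between 0 and 4 with 1 library left out.

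Surfactant genes were higher. Of 11 measured genes of the surfactant and alveolar type 2 list 8 rose and 1 fell (median change 0.57), and 7 of the rises were called whichever library was left out. SFTPB, a surfactant protein needed for spreading the film (chromosome 2, 85657314 to 85668741), stood at 10.4 and 10.8 FPKM in the controls and at 38.2 and 28.8 with ZNF263. It was 2.94-fold higher (log2 change 1.56, SE 0.11, adjusted p = 9.42e-07), and the ZNF263 libraries lay apart from each other but far above the controls. SFTPA2 went from 2.48 and 2.08 to 17.0 and 12.8 FPKM (log2 change 2.26, adjusted p = 8.87e-08) and SFTPA1 from 1.72 and 2.24 to 8.41 and 5.63 FPKM (log2 change 1.41, adjusted p = 7.1e-06). These are near-identical neighbours on chromosome 10, so the division of reads between them is uncertain. LPCAT1, which makes the main surfactant lipid, went from 248.6 and 239.5 to 415.5 and 383.2 FPKM (log2 change 0.71, adjusted p = 1.3e-06). The proteases CTSH and NAPSA, which process surfactant protein, rose by 0.60 and 0.57. The homeodomain protein HOPX, which is also in the alveolar type 1 list, rose by 0.41. The lipid pump ABCA3 rose by 0.23 (adjusted p = 0.0288), but not without either ZNF263 library (adjusted p = 0.132 and 0.0842) or the second control library (adjusted p = 0.088). The lineage factor NKX2-1 was at 134.2 and 130.2 FPKM in the controls and 153.5 and 142.7 with ZNF263, and did not pass the test (log2 change 0.16, adjusted p = 0.27). ETV5, a MAPK-responsive factor, fell by 0.31 and LAMP3 changed by -0.11 without passing. SFTPC, the most specific marker of type 2 cells, had 0 reads in each control and 1 in each ZNF263 library, and SFTPD had 8 to 11 reads, so these defining markers of type 2 cells were at or near 0 in both groups. SFTPB was listed at 0 in all PC9 libraries and at no more than 0.189 FPKM in H1975, so the rise had no counterpart there to compare in size. SFTPA1 and SFTPA2 were at 0.1101 FPKM or less in both lines. Libraries without a transcript add almost no spread, so the SE and adjusted p of these surfactant protein genes lean on such libraries. From the HCC827 libraries alone 7 genes of the list rose.

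Some airway and secretory genes rose beside them. Of 21 listed genes 18 had values and 8 reached the minimum, and of these 4 rose and 1 fell. The fall was that of SLPI, by 0.32, and its call was lost without the first ZNF263 library or the second control library. The adhesion molecules CEACAM6 and CEACAM5 went from 88.4 and 109.1 to 193.5 and 173.6 FPKM (log2 change 0.89, adjusted p = 2.15e-05) and from 3.89 and 4.53 to 12.1 and 10 FPKM (log2 change 1.21, adjusted p = 1.63e-06). CEACAM5 was at 0.042 FPKM or less in PC9 and H1975, so its adjusted p also leans on libraries without the transcript. The mucin MUC1 rose by 0.68 and AGR2, which folds mucins, by 0.84. MUC5B, the gel-forming mucin, was below the minimum level but had 65 and 72 reads in the controls and 354 and 238 with ZNF263, and its regulator SPDEF 19 and 12 reads against 60 and 44. Other members of the airway list were absent or nearly so. SCGB3A1 was at 0 FPKM in each library, and AGR3, CYP2F1, BPIFA1 and BPIFB1 were at 0.18 FPKM or less. CEACAM6 also rose in PC9, from 0.556 and 0.604 to 6.75 and 7.44 FPKM, and the HCC827 change minus the PC9 change was -1.46 (adjusted p = 1.6e-05). MUC1 and AGR2 changed by 0.71 and 0.62 in PC9 and by -1.40 and -1.74 in H1975, all called. The water channel AQP3 went from 31.1 and 29.7 to 82.5 and 81.8 FPKM, 2.65-fold higher (log2 change 1.41, SE 0.08, adjusted p = 4.89e-07), with closely matched libraries in each group. AQP5, the water channel of alveolar type 1 cells and glands, went from 1.86 and 0.789 to 3.38 and 3.11 FPKM (log2 change 0.91, adjusted p = 0.000712). CAV1 and CAVIN1, which build caveolae in type 1 cells, fell by 0.50 and 0.56, and so the type 1 list was mixed, with 4 of 7 higher and 2 lower. HOPX, counted in the surfactant and alveolar type 2 list too, is among those higher.

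**Figure D4:**
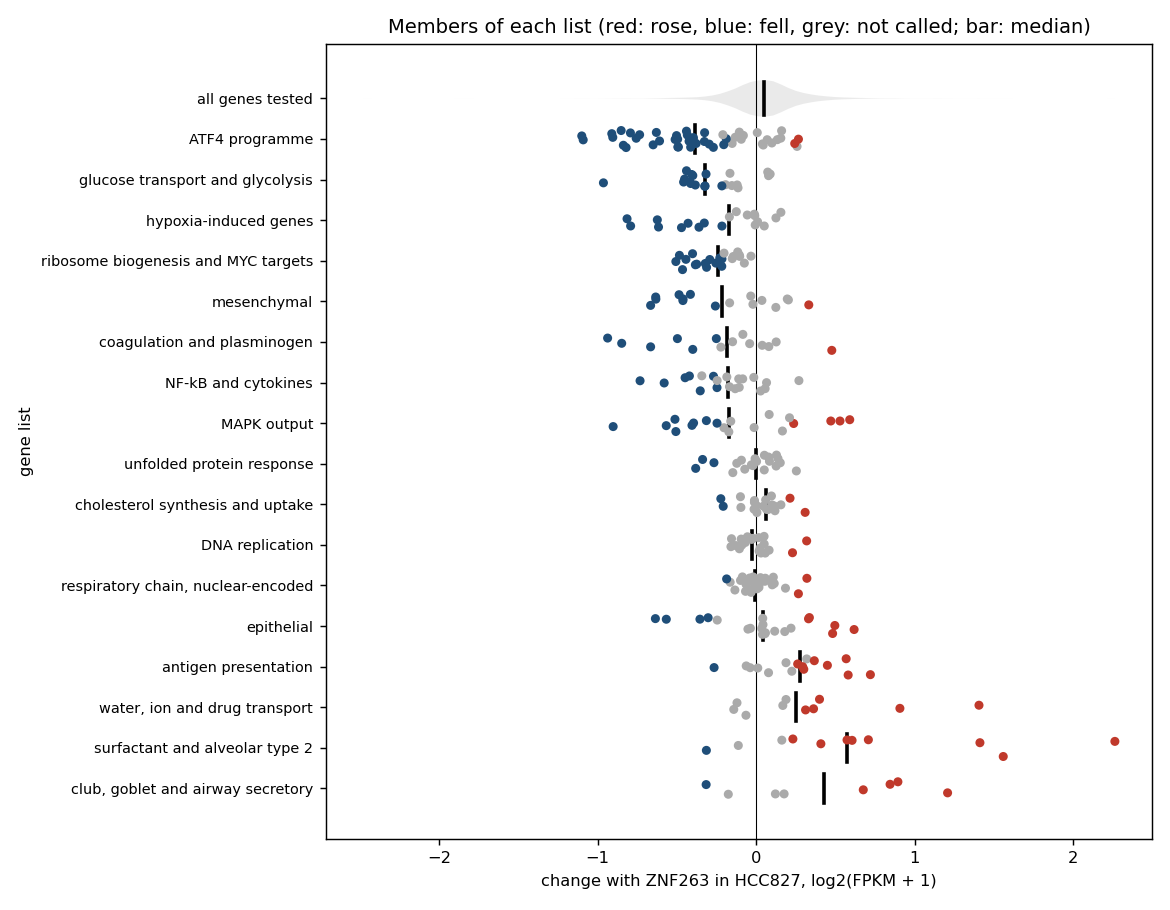
Change with ZNF263 in HCC827 on the log2(FPKM + 1) scale for the members of 17 gene lists (points, red where a gene rose, blue where it fell, grey where it did not pass the test; bar, median of the list) below the distribution of all 10970 genes. The ATF4 programme, with a median of -0.39, and the surfactant list, with a median of 0.57, lie on opposite sides of the median of all genes at 0.05.

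Of 16 mesenchymal genes 8 fell and 1 rose. Vimentin, VIM, the intermediate filament of mesenchymal cells, went from 139.7 and 141.5 to 90.7 and 89.9 FPKM (log2 change -0.63, SE 0.05, adjusted p = 1.3e-06). The fibronectin receptor chain ITGA5 fell by 0.46, the matrix enzyme LOXL2 by 0.41, the repressor SNAI2 by 0.63, the matrix protein THBS1 by 0.46, and fibronectin, FN1, rose by 0.33. The epithelial list did not move one way, with 5 of 21 higher and 4 lower. CDH1 and EPCAM, which define epithelial cells, changed by 0.06 and 0.04 without passing, and EPCAM stood between 270.8 and 286.0 FPKM and CDH1 between 126.2 and 135.8 in the 4 libraries. Among keratins, KRT7 went from 1249 and 1092 to 698 and 809 FPKM (log2 change -0.64, adjusted p = 6.17e-05) and KRT19 fell by 0.57, while KRT4, a keratin of wet-surfaced epithelia, went from 20.6 and 16.9 to 43.7 and 44.7 FPKM (log2 change 1.20, adjusted p = 1.74e-06). In PC9 VIM changed by 0.02 and KRT4 rose by 1.36, so that KRT4 had no detectable difference between these lines (adjusted p = 0.5) and VIM did (-0.66, adjusted p = 3.62e-05).

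Genes of coagulation and plasminogen activation fell in 6 of 14 cases and rose in 1. Thrombomodulin, THBD, which turns thrombin towards anticoagulant protein C, fell by 0.94, the urokinase receptor PLAUR by 0.85 and tissue factor, F3, by 0.50, and PLAT, tissue plasminogen activator, rose by 0.48. Other large changes were in genes of mixed function. ARHGDIB, an inhibitor of small GTPases, went from 39.6 and 40.1 to 105.7 and 109.6 FPKM (log2 change 1.41, adjusted p = 1.99e-07), and the caveolar protein CAVIN2 rose by 1.17, opposite to CAVIN1. The activin antagonist FSTL3 went from 22.6 and 20.7 to 9.05 and 10.5 FPKM (log2 change -1.07, adjusted p = 1.25e-06), the protease ADAMTS1 fell by 1.16, the BMP antagonist NOG by 0.94 and the factor FOXD1 by 0.93. SLX1B, a nuclease subunit, had the lowest fitted change, -2.48 (adjusted p = 0.00438), from 8.61 and 6.48 to 0.341 and 0.728 FPKM. It has a near-identical copy, SLX1A, so its reads are uncertain, and it did not pass without the first ZNF263 library (adjusted p = 0.0523).

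Among receptors of the ERBB family, EGFR fell while its partners rose. ERBB3, which signals to PI3K as a dimer, went from 13.4 and 14.8 to 23.0 and 20.3 FPKM (log2 change 0.58, SE 0.08, adjusted p = 0.000222), and ERBB2 rose by 0.37. ERBB3 changed by -0.69 in PC9 and by -1.97 in H1975, both called, and the HCC827 change differed from both (adjusted p = 1.6e-05 and 5.56e-10). Of the 14 genes of the list 4 rose and 3 fell, among the latter the ligand NRG1, by 0.36, and 5 fell without the second ZNF263 library. Genes read as output of the MAPK cascade were mixed, with 8 of 19 lower and 4 higher, of which 1 rose without the first ZNF263 or the first control library and 2 without the second ZNF263 library. The phosphatase DUSP5 went from 26.5 and 24.3 to 12.7 and 13.6 FPKM (log2 change -0.90, adjusted p = 1.74e-06), FOSL1 fell by 0.57, EPHA2 by 0.51 and cyclin D1, CCND1, by 0.39, and the feedback inhibitor SPRY1 rose by 0.59.

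Of 20 NF-kB and cytokine genes 7 fell and none rose. The chemokine CXCL8 went from 15.4 and 20.1 to 9.99 and 10.4 FPKM (log2 change -0.73, adjusted p = 0.00305), the feedback inhibitor TNFAIP3 fell by 0.58, LIF by 0.45 and NFKB2 by 0.42. Antigen presentation genes rose in 8 of 16 cases and fell in 1, but 4 rose without the first ZNF263 library and 4 without the second control library. The HLA class I chain HLA-B went from 52.4 and 46.0 to 83.8 and 79.3 FPKM (log2 change 0.72, adjusted p = 7.52e-05), its activator NLRC5 rose by 0.58 and the light chain B2M by 0.37. Of 23 interferon response genes 4 rose and 4 fell, with a median change of 0.00. Without the second control library 8 of them fell, and 1 fell without the first control or the second ZNF263 library. Several lists had few calls: 3 of 20 unfolded protein response genes fell, XBP1 by 0.38 and HSPA5 by 0.27 among them, 2 of 22 DNA replication genes rose, and 2 of 29 respiratory chain genes rose and 1 fell. With 1 library left out, each count of these lists stayed between 0 and 4. The unfolded protein response fell more widely in PC9, where 11 of 20 genes fell, and the HCC827 change lay above that of PC9 in 11 of these genes.

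Markers of other cell types were low. Of 12 immune markers 1, CD68, passed the minimum, PTPRC, which defines leukocytes, was at 0.0458 FPKM or less in each library, and the summed level of the list was 42.1 to 42.9 FPKM in the controls and 31.5 to 37.2 with ZNF263, nearly all of it CD68, which lysosomes of other cells also hold. The 8 endothelial markers summed to 0.488 FPKM or less in each library, with CLDN5 at 0. The fibroblast markers summed to 20.7 to 22.3 FPKM in the controls and 22.5 to 23.7 with ZNF263; among them COL3A1 rose from 0.272 and 0.296 to 1.88 and 1.82 FPKM. Squamous markers summed to 9.78 to 9.98 FPKM in the controls and 11.2 to 12.4 with ZNF263, and neuroendocrine markers to 12.8 to 13.7 and 13.8 to 14.5. The part of these small shifts in the gene changes above was not tested. In bulk libraries, fewer cells with a transcript and less of it per cell cannot be told apart.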

How the data were processed

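RNA-seq libraries were compared in 2 groups of 2, HCC827 with ZNF263 and HCC827 with the control vector. Per the labels' protocols, the RNA came from a TRIZOL extraction and the SMARTER mRNA-seq kit was used. The authors deposited FPKM values on genome build GRCh38.p13, per the submitters' processing notes; which aligner, counter, annotation and strand setting were used is not given in the sources used here. Of 20030 rows, 27 with date-like names and 3383 without an HCC827 value were left out, and 10970 genes were kept that reached 1 FPKM in at least 2 libraries. FPKM was analysed as log2(FPKM + 1), which understates changes of low genes, with limma 3.58.1 in R 4.3.3 (trended prior, 1 mean for each of the 6 groups of the series, no replicate block, 2-sided). Every log2 change is given on that scale, and every fold change is converted back from it. Benjamini-Hochberg adjustment was over all kept genes, with a call at 0.05; a difference between lines is the difference of their contrasts. The HCC827 groups of 2 leave 2 residual degrees of freedom of their own. Reads were recovered as the smallest whole multiples of the worth of 1 read (tolerance 0.02, up to 500000 reads). With genes shuffled, 0.0% gave whole reads in a search of smaller numbers, against 82.8% unshuffled. The fit was also run on simulated data with the same spread of a gene in every line. Such data cannot judge calls under the larger spread of the HCC827 controls. Genes named are ZNF263, EGFR and AURKA, the 20 largest rises and falls among called genes whose mean in a group reached 5 FPKM, in each list up to 8 called members in each direction and the first 4 listed, and any member of the ATF4, glucose and hypoxia, and lung lineage lists; COL3A1 is named as the fibroblast marker that was called. The gene lists are from textbook knowledge, and the comparison and the lists were chosen with earlier results of these data known. Promoters are RefSeq sequences, with 1 start site per gene. Some genes that the naming rule selects are not reported here.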

Additional observations from a re-analysis of the deposited data

Results flagged for a closer look

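Each difference here is the log2 change with ZNF263 in HCC827 minus that in another line, flagged because limma's test of the difference passed the threshold after Benjamini-Hochberg adjustment over all genes; 25 such differences were looked at for genes named in the report, and 21 passed. For ZNF263 itself the difference was -1.34 against PC9 and -1.27 against H1975, so the HCC827 comparison rests on the smallest rise of the 3 lines. In the ATF4 programme the differences against PC9 were -0.83 for SESN2 (-0.827), -0.66 for CHAC1 (-0.656), -0.71 for PHGDH (-0.707) and -0.74 for SLC1A5 (-0.742). Against H1975 they were -1.32 for PHGDH, -1.57 for PSAT1, -0.97 for ASNS and -1.31 for SLC1A5. CHAC1 was at 0.451 FPKM or less in PC9, and its difference did not pass with a pseudocount of 0.1 (adjusted p = 0.379) or 0.5 (adjusted p = 0.0722).

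SLC2A1 differed by -1.02 from PC9 and by -0.39 from H1975 (-0.393), and VIM by -0.66 from PC9 (-0.656). G0S2 differed by -1.98 from PC9, where it was hardly expressed, and by -0.52 from H1975 (-0.515), the latter not with a pseudocount of 0.1 (adjusted p = 0.426) or 0.5 (adjusted p = 0.107). SFTPB differed by 1.56 from PC9 and by 1.38 from H1975, lines in which it was at or near 0. ERBB3, which rose in HCC827 and fell in both other lines, differed by 1.28 from PC9 and by 2.56 from H1975. AQP3 rose in HCC827 and was 1.65 above its change in PC9. In H1975 AQP3 was higher with ZNF263 as well, at 16.7 and 19.4 FPKM against 8.23 and 9.84 FPKM in the controls. CEACAM6 rose in both lines and by less in HCC827, with a difference of -1.46 from PC9. Those that did not pass were PSAT1 (adjusted p = 0.0731), ASNS (adjusted p = 0.318), KRT4 (adjusted p = 0.5) and MYC (adjusted p = 0.0966), each against PC9.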

How the results depend on the processing

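Counts of genes called depended most on single libraries and on where the spread came from. With 1 library left out, the genes called numbered from 1115 to 3179, those higher from 711 to 2036 and those lower from 404 to 1143, lowest without the first ZNF263 library and highest without the second control library. From the HCC827 libraries alone, 1527 genes were called, 459 of them lower. Ribosome biogenesis genes that fell numbered from 9 to 14 with 1 library left out. Antigen presentation genes that rose numbered 5 with no filter, 5 with a pseudocount of 0.1 and from 4 to 9 with 1 library left out. The cause was not tested. Falls in the ATF4 programme numbered from 27 to 34 over all alternatives. Falls in the glycolysis, hypoxia, mesenchymal, MAPK, NF-kB, coagulation and epithelial lists, and rises in the surfactant and ERBB lists, stayed within 1.5 times in every refit.

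Counts of few genes moved more. With 1 library left out, rises numbered from 0 to 3 for amino acid transporters and the whole ATF4 programme, 0 to 1 for other amino acid synthesis, glycolysis, hypoxia and ribosomal protein genes, 0 to 2 for cholesterol, 1 to 3 for fatty acid synthesis, mesenchymal and respiratory chain, 0 to 3 for unfolded protein response, 1 to 4 for MAPK, 2 to 3 for interferon, 1 to 8 for mitosis, and 1 to 2 for DNA replication and coagulation genes. Falls then numbered from 0 to 1 for airway and antigen presentation, 0 to 4 for cholesterol and respiratory chain, 1 to 4 for fatty acid synthesis and mitosis, 2 to 5 for ERBB, 1 to 8 for interferon, 0 to 2 for DNA replication and 0 to 21 for ribosomal protein genes. From the HCC827 libraries alone 0 transporter genes rose, 0 cholesterol genes moved either way, 0 antigen presentation, ribosomal protein and respiratory chain genes fell, 1 gene each way was called for fatty acid synthesis and for mitosis, and 1 DNA replication gene rose. After median-of-ratios scaling 5 unfolded protein response genes and 1 DNA replication gene fell, 2 MAPK genes rose, and 1 gene rose for each of transporters, cholesterol, fatty acid synthesis, mitosis, DNA replication and respiratory chain. After quantile normalization 2 genes rose for each of unfolded protein response, MAPK, mesenchymal and ribosomal protein genes, 1 for each of transporters, cholesterol and fatty acid synthesis, and 1 DNA replication gene fell. With no filter 7 airway genes rose and 0 fell, 2 interferon genes rose and 2 fell, 1 gene rose for each of transporters, fatty acid synthesis, MAPK and respiratory chain, and 0 fell for cholesterol, ribosomal protein and respiratory chain. With a pseudocount of 0.1, 2 genes rose for each of alveolar type 1, MAPK, interferon, epithelial and mesenchymal and 1 cholesterol gene fell, and with 0.5, 2 MAPK and 2 mesenchymal genes rose. With a constant prior variance 0 cholesterol and respiratory chain genes and 1 mitosis and 1 ribosomal protein gene fell. With the block 1 transporter gene, 1 gene of other amino acid synthesis and 2 MAPK genes rose, and 1 ribosomal protein and 0 respiratory chain genes fell.

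Of 114 named genes that were called, 101 kept the call in every refit and none changed sign. Losses with a library left out stand in the report. With a pseudocount of 0.1, NAPSA, HOPX, KRT19, ATF3 and VLDLR lost it (adjusted p = 0.206, 0.214, 0.322, 0.0655 and 0.0662). From the HCC827 libraries alone SLC7A2, SLC38A10, VLDLR, MTHFD2, PYCR1, FARSB and ABCA3 did (0.151, 0.0525, 0.0574, 0.176, 0.0588, 0.181 and 0.149). SLC7A2 and ABCA3 also lost it after median-of-ratios scaling (0.0612 and 0.0674) and quantile normalization (0.225 and 0.174), and SLC7A2, PYCR1 and SLPI with no filter (0.0533, 0.067 and 0.0705). SLC38A1 fell after median-of-ratios scaling (adjusted p = 0.0191) and among genes with at least 1 FPKM in all 4 libraries (0.0498). Less the median change of 10 neighbouring genes on either side, 30 of the 114 called named genes moved by more than their SE, none past 0. Named genes that were not called were not assessed for this shift. Of 21 differences between lines that passed, 18 did so in every refit; besides those given above, SFTPB against H1975 did not with a pseudocount of 0.1 (adjusted p = 0.233), and PSAT1 against PC9 passed after median-of-ratios scaling (adjusted p = 0.0431) and with the block (adjusted p = 0.0229).

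With the replicate number as a block, 2346 genes were called. Same-numbered HCC827 libraries deviated together with a correlation of 0.09, so the numbers were not taken to pair the samples. Under the block SLC38A1 fell (adjusted p = 0.0352) and SLC7A2 lost its call (adjusted p = 0.0535). At 64.6 to 67.6 reads per FPKM for the median gene, counting error limits small changes near 1 FPKM.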
